A study of Arabidopsis thaliana with 9 samples.

Results

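Xyloglucan endotransglucosylase/hydrolase (XTH) genes were followed across leaves of 3 Arabidopsis thaliana genotypes. The 4 genes described are XTH19 (AT4G30290), XTH32 (AT2G36870), XTH16 (AT3G23730) and EXGT-A3, also called XTH27 (AT2G01850). They were taken by their probe sets, 4 of the 22810 in the deposited table, each of which has 1 gene in the platform annotation. The table names no genome build, so no coordinates are given.

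The series holds 9 Affymetrix ATH1 arrays of leaf RNA, 3 per group, from plants at growth stage 1.14. For all 9 the labels give 3 days of cold, transfer to soil on day 7, a temperature of 21 °C and 6 plants per pot. The calpain overexpressing group had At1g55350, the DEK1 locus, knocked out by a T-DNA, and carried a transgene labelled ADEK1 calpain. The calpain null group carried the same knock-out and a transgene labelled as the null form of the ADEK1 calpain. The third group was wild-type Col-0, which is also the background of both lines. Each comparison with wild type is therefore of knock-out plus transgene against neither, and the comparison of the lines is of 1 transgene against the other. The labels give neither the promoter of the transgenes, nor the number of independent transformants, nor whether plants were pooled, and no probe set is named for DEK1 in the annotation used here. DEK1 is a membrane-spanning plant calpain, a cysteine protease required for epidermal identity and for controlled growth of organs.

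Xyloglucan is the main hemicellulose of the primary wall in Arabidopsis and coats and tethers cellulose microfibrils. XTH enzymes, secreted into the wall, cut a xyloglucan chain and either join the new end to another xyloglucan (endotransglucosylase activity) or release it with water (hydrolase activity). Through these reactions they take part in wall loosening and wall reinforcement in growing leaves. The family has many members, with different sites of expression.

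Values are MAS5 signals, a linear brightness per probe set that the authors scaled to a common mean on each array, so each is relative to its own array and is not compared between genes. Fold changes are differences of log2(signal + 3.63) from a limma fit to all 9 arrays, and a call means an adjusted p (Benjamini-Hochberg, over 14151 probe sets) under 0.05. The array numbered 1 stood apart within each of the 3 groups. On the first principal component, which held 40.01% of the variance, the calpain overexpressing arrays numbered 1, 2 and 3 scored -9.37, 27.1 and 34.5, the calpain null arrays -9.62, 15.8 and 14.7, and the wild-type arrays -33.2, -19.2 and -20.7, so that number 1 was the lowest in every group. The wild-type array numbered 1 also had the highest 3′ to 5′ signal ratio of the actin control, 2.11, against 1.57 to 1.84 on the other 8 arrays. The 25S rRNA control was 160 and 167 on the calpain overexpressing and calpain null arrays numbered 1, and 208 to 384 on the other 7. In wild type it went the other way, with 315 on the array numbered 1 against 247 and 208 on numbers 2 and 3. Of 8 leaf mesophyll markers, 2 had a named probe set: the Rubisco activase gene RCA and the light-harvesting gene LHCB4.3. RCA had 4629 to 5330 on calpain overexpressing, 4930.2 to 6019 on calpain null and 4734 to 5606 on wild-type arrays, which overlap. LHCB4.3 had 108, 161 and 115.5 on the calpain overexpressing arrays, above the 57.7 to 74.9 of calpain null and the 46.7 to 94.1 of wild-type arrays. Its difference was 0.88 on the log2 scale against wild type (adjusted p = 0.0753) and 0.93 against calpain null (adjusted p = 0.107), larger than those of XTH32, XTH16 and EXGT-A3 below. Neither was called, and the part of such a shift in the XTH results was not tested. In whole leaves, fewer cells of a type and less RNA per cell cannot be told apart.

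XTH19 was near the bottom of the signal range in calpain null and wild-type leaves and well inside it in calpain overexpressing leaves. It belongs to a group of closely related XTH genes studied mostly in roots, and its product was shown to join xyloglucan chains. Its signals were 36.2, 157 and 443 on the calpain overexpressing arrays numbered 1, 2 and 3, against 0.939, 2.68 and 4.25 on the calpain null arrays and 0.513, 5.28 and 1.32 on the wild-type arrays. The lowest calpain overexpressing array lay above every array of the other 2 groups, which overlapped each other. Among the probe sets of its own array, XTH19 stood at percentiles 51.0, 80.8 and 93.1 in the calpain overexpressing line, from 7.89 to 20.03 in the calpain null line and from 6.11 to 22.7 in wild type.

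The XTH19 signal averaged 212 ± 209 in calpain overexpressing, 2.62 ± 1.66 in calpain null and 2.37 ± 2.55 in wild-type leaves (SD, n = 3 each). XTH19 rose by 4.64 on the log2 scale against wild type (95% interval 3.17 to 6.12, adjusted p = 0.00859) and by 4.54 against calpain null (3.06 to 6.02, adjusted p = 0.0156). Calpain null minus wild type was 0.11 (-1.37 to 1.58, adjusted p = 0.953). These comparisons are not independent, as each pair of them shares the calpain overexpressing, the calpain null or the wild-type arrays.

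The size of the XTH19 change is set largely by the pseudocount. It was 5.62 with a pseudocount of 1 and 3.04 with one of 17.6, the signal that a probe set had to reach on at least 3 arrays to be tested. XTH19 reached that signal on the calpain overexpressing arrays and on none of the other 6, so it could enter the test only by differing. The change against wild type was 5.56 when the calpain overexpressing array numbered 1 was left out and 3.82 when number 3 was, both called. The call was lost without the calpain overexpressing array numbered 2 (4.56, adjusted p = 0.0629) or the wild-type array numbered 3 (4.55, adjusted p = 0.0604). The call against calpain null was lost without that same calpain overexpressing array (4.45, adjusted p = 0.0563) or without the calpain null array numbered 2 (4.56, adjusted p = 0.0511) or 3 (4.72, adjusted p = 0.0522).

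**Figure D1:**
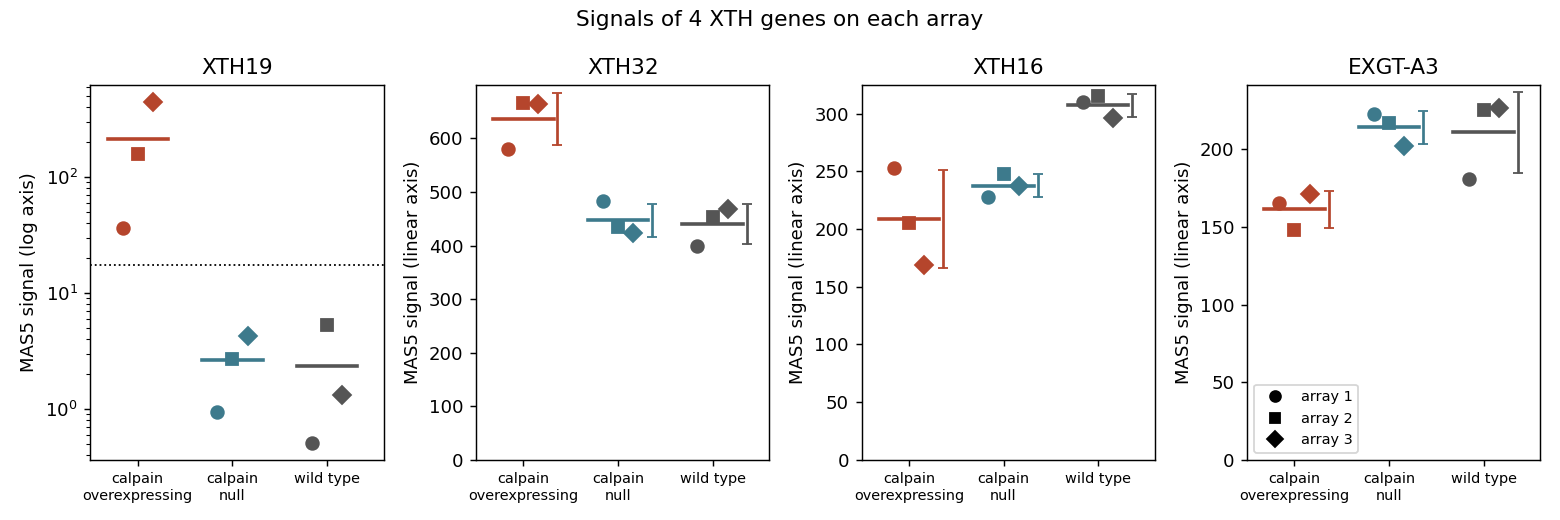
MAS5 signals of the 4 XTH genes on each array (circle, square and diamond for the arrays numbered 1, 2 and 3), with the group mean as a line and, on the linear panels, the SD as a bar (n = 3). XTH19 has a log axis with the filter signal of 17.6 dotted: its calpain overexpressing arrays span 36.2 to 443, above the line, and the other 6 arrays lie at 5.28 or less.

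XTH32 was higher in calpain overexpressing leaves, by less than XTH19 and with little spread. It belongs, with XTH31, to a small group of XTH enzymes for which hydrolase activity has been described. Signals were 581, 666 and 664 on the calpain overexpressing arrays, against 483, 435 and 423 on the calpain null arrays and 398, 454 and 469 on the wild-type arrays. The calpain overexpressing arrays lay above all others, while calpain null and wild-type arrays overlapped.

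The means were 637 ± 48.5 for calpain overexpressing, 447 ± 31.4 for calpain null and 440.3 ± 37.0 for wild type (SD, n = 3 each). XTH32 rose 1.44-fold against wild type (log2 fold change 0.53, 95% interval 0.29 to 0.77, adjusted p = 0.0361). Against calpain null the difference was of like size, 0.51 (0.27 to 0.74), with an adjusted p of 0.0685 that missed the threshold. Calpain null minus wild type was 0.02 (-0.21 to 0.26, adjusted p = 0.937). The call against wild type was kept in 12 of 21 alternatives, with adjusted p from 0.00213 to 0.174, and was lost when any 1 wild-type array was left out (0.0964 to 0.144). It was also lost without the calpain overexpressing arrays numbered 2 or 3 (0.174 and 0.163) and without either of the calpain null arrays with these numbers (0.0522 and 0.0512), which enter through the shared estimate of spread.

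XTH16, another enzyme of the family, had its highest signals in wild type. It had 253, 205 and 168 on the calpain overexpressing arrays, 228, 248 and 238 on the calpain null arrays, and 310.0, 316 and 296 on the wild-type arrays. Every array of both transgenic lines lay below the lowest wild-type array, and the 2 lines overlapped. XTH16 was the member whose calpain null arrays stood clear of wild type. Among all probe sets tested 24.6% did so, which 1 of 4 members is near.

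XTH16 averaged 209 ± 42.4 in calpain overexpressing, 238 ± 10.2 in calpain null and 307 ± 10.1 in wild-type leaves (SD, n = 3 each). The log2 fold change against wild type was -0.57 for calpain overexpressing (95% interval -0.87 to -0.27, adjusted p = 0.0606) and -0.37 for calpain null (-0.66 to -0.07, adjusted p = 0.209), so neither was called over all probe sets. Calpain overexpressing minus calpain null was -0.20 (-0.50 to 0.10, adjusted p = 0.679). Without the calpain overexpressing array numbered 1, the difference from wild type was -0.71 and was called (adjusted p = 0.00465), in a fit that called 12.6% of all probe sets.

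EXGT-A3 had its lowest signals in calpain overexpressing leaves. Its product is linked to the formation of water-conducting vessel elements in rosette leaves and to trichomes. It had 165, 148 and 171 on the calpain overexpressing arrays, 223, 217 and 202 on the calpain null arrays, and 181, 225 and 227 on the wild-type arrays. The calpain overexpressing arrays lay below all 6 others, though the wild-type array numbered 1 was close to them.

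The EXGT-A3 means were 161 ± 11.9 for calpain overexpressing, 214 ± 10.5 for calpain null and 211 ± 26.2 for wild type (SD, n = 3 each). Calpain overexpressing minus wild type was -0.37 on the log2 scale (95% interval -0.64 to -0.11, adjusted p = 0.141) and calpain overexpressing minus calpain null was -0.40 (-0.67 to -0.14, adjusted p = 0.206), neither called. Calpain null minus wild type was 0.03 (-0.24 to 0.29, adjusted p = 0.932).

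In calpain overexpressing minus wild type, 2 of the 4 members were called, both higher, where 1.61% of all probe sets tested were called and 0.806% were called higher. XTH19 is among them and could enter this test only by differing, so the count is given as a description. With no filter, 1 of 4 was called, XTH19, against 0.334% of all probe sets. The arrays of these 2 groups did not overlap for 4 of 4 members, against 21.9% of all probe sets tested. In calpain overexpressing minus calpain null, 1 of 4 was called, XTH19, against 0.523% of all tested, and 3 of 4 did not overlap, against 13.9%. XTH19 is in the non-overlap counts of both comparisons, and it entered the test through its calpain overexpressing arrays alone. These counts too are therefore given as a description. In calpain null minus wild type, 0 of 4 were called by limma, against 0.0565% of all tested, though XTH16 had an unadjusted p of 0.0206, as 17.4% of all tested had one under 0.05. There, 1 of 4 did not overlap, which is near the 24.6% of all probe sets. The F-test over the 3 groups called XTH19 (adjusted p = 0.0106) and XTH32 (adjusted p = 0.0499, just inside the threshold), against 1.16% of all tested. The same limit holds for XTH19 in this test. The median log2 fold change of all probe sets tested was 0.01, 0.01 and -0.01 in calpain overexpressing minus wild type, calpain null minus wild type and calpain overexpressing minus calpain null.

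**Figure D2:**
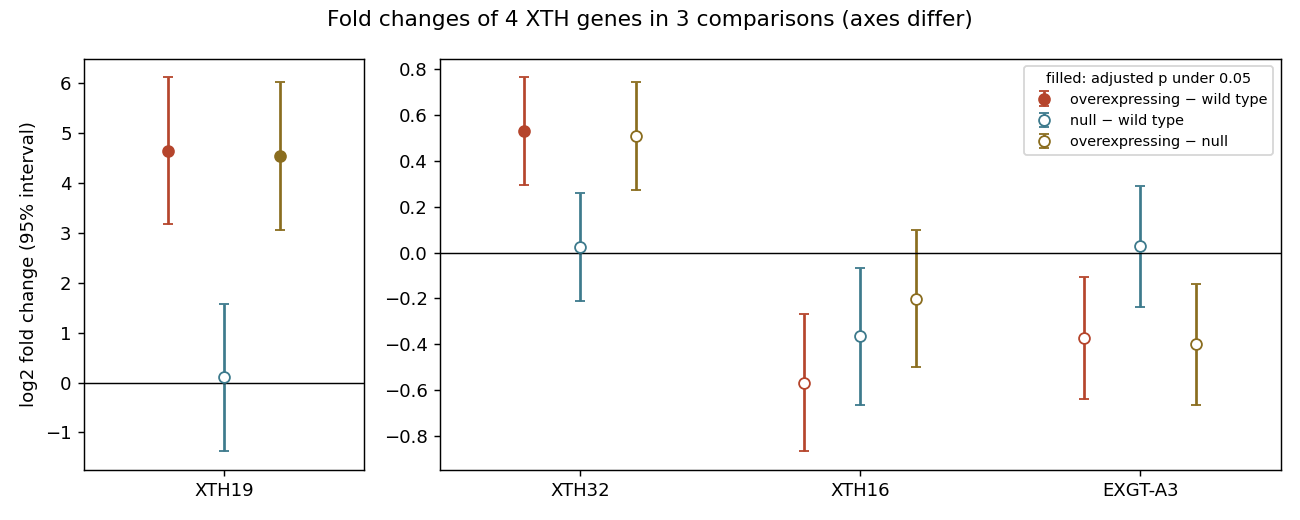
Log2 fold changes of the 4 genes in the 3 comparisons, with 95% intervals from the limma fit and filled points where the adjusted p was under 0.05 (the axis of XTH19, at left, differs from that of the other genes). XTH19 was called at 4.64 and 4.54 and XTH32 at 0.53, and no point of calpain null minus wild type is filled.

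The means of the members differed in direction as well as in size. XTH19 and XTH32 had higher means, and XTH16 and EXGT-A3 lower means, in calpain overexpressing leaves than in either other group. Of these differences, those of XTH19 from both groups and of XTH32 from wild type were called. XTH16 and EXGT-A3 were called against neither group, and for XTH16 the calpain overexpressing and calpain null arrays overlapped. For XTH19, XTH32 and EXGT-A3 the calpain null mean lay within 1 wild-type SD of the wild-type mean. For XTH16 the calpain null mean of 238 lay between the calpain overexpressing mean of 209 and the wild-type mean of 307.

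XTH19 varied more among the calpain overexpressing arrays than any other probe set tested. Its log2 signals there had an SD of 1.75, the highest of 14151 probe sets, the next being 1.66 and the median 0.18. The highest calpain overexpressing signal of XTH19 was 12.2 times the lowest. The same ratio was 1.15 for XTH32, 1.502 for XTH16 and 1.15 for EXGT-A3. The log2 SDs of these 3 genes in the calpain overexpressing group were 0.11, 0.29 and 0.11, and 3437 probe sets had a larger SD than XTH16.

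**Figure D3:**
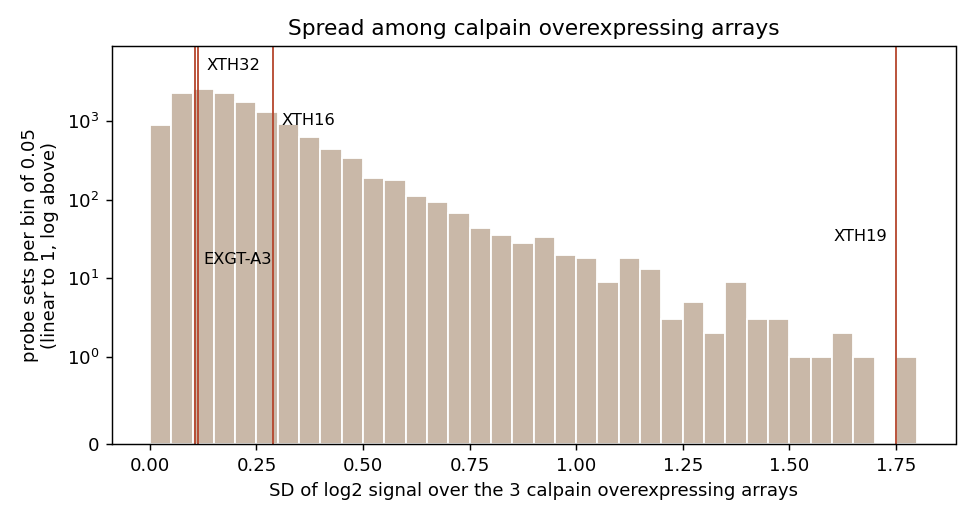
Number of probe sets by the SD of their log2 signal over the 3 calpain overexpressing arrays, in bins of 0.05 with a count axis that is linear to 1 and logarithmic above. Vertical lines mark the 4 genes: XTH19 stands at the far right at 1.75, and XTH32, EXGT-A3 and XTH16 lie between 0.11 and 0.29.

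Several measures rose in the same array order as XTH19 among the calpain overexpressing arrays, and the RNA integrity measures given below did not rise in that order throughout. The array numbered 1, lowest for XTH19, also had the lowest first component score and the lowest 25S rRNA signal of its group. The component was taken over all probe sets tested, XTH19 included, so its score is not a separate measure. The 3′ to 5′ signal ratio of the GAPDH control, a measure of RNA integrity, was 0.907, 0.955 and 0.919 on these arrays, against 0.864 to 1.04 on calpain null and 0.889 to 0.941 on wild-type arrays. That of the actin control was 1.72, 1.65 and 1.78 on these arrays, highest on number 3 as XTH19 was. For the ubiquitin control it was 1.34, 1.31 and 1.31. The root marker PYK10 had 9.96, 20.8 and 112 on the calpain overexpressing arrays, 15.97, 22.8 and 63.9 on the calpain null arrays and 43.3, 15.2 and 19.4 on the wild-type arrays. PYK10 and XTH19 were both highest on the array numbered 3 in the calpain overexpressing group and in the calpain null group (63.9 and 4.25 in the latter). In wild type, PYK10 was highest on the array numbered 1, where XTH19 was lowest (43.3 and 0.513). The XTH19 signals of calpain null and wild type are near the bottom of the range. The log2 SD of PYK10 over the calpain overexpressing arrays was 1.60, and 4 probe sets tested had a larger one. Of 4 root markers, PYK10 alone had a named probe set. The part of these measures in the XTH19 result was not tested.

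With the arrays numbered 1 of all groups left out, an alternative chosen after seeing the data, 4 of 4 members were called in calpain overexpressing minus wild type. That alternative also called 13.6% of all probe sets. XTH19 then differed by 5.33 (adjusted p = 0.000369), XTH32 by 0.52 (adjusted p = 0.00617), XTH16 by -0.71 (adjusted p = 0.00619) and EXGT-A3 by -0.50 (adjusted p = 0.0221). XTH32 was also higher than in calpain null leaves there, by 0.63 (adjusted p = 0.0101, with 2.64% of all probe sets called). Weighting the arrays by quality also called 4 of 4 against wild type, with 18.8% of all probe sets called. Leaving out the arrays numbered 1 called 7.93% of all probe sets in calpain null minus wild type. None of the 4 members was called in that comparison in any of the alternatives run, where the lowest adjusted p was 0.0809, for XTH16.

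Of 33 XTH genes listed by locus, 10 had a probe set with a single named gene: the 4 above and XTH18, XTH20, XTH21, XTH26, XTH29 and XTH33. The other 23 are not analysed here. The 6 genes had signals of 0.301 to 14.4 over the 9 arrays, below the filter signal on every array, and were not tested. Their summed signal was 20.1 to 28.9 on calpain overexpressing arrays, 25.01 to 27.6 on calpain null arrays and 13.2 to 25.8 on wild-type arrays. These ranges overlap.

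XTH18, among the closest relatives of XTH19, lies directly beside it on the chromosome in the TAIR10.1 RefSeq table. XTH24 lies on the far side of XTH18 and has no probe set named here. XTH18 had signals of 3.70, 7.69 and 6.41 on the calpain overexpressing arrays, 7.71, 3.60 and 5.90 on the calpain null arrays and 8.42, 3.16 and 2.92 on the wild-type arrays. All 3 groups overlapped. In a fit with no filter, XTH18 in calpain overexpressing minus wild type was 0.21 (95% interval -0.49 to 0.92, adjusted p = 0.833). In that fit XTH33 had the smallest p of the 6, with 0.96 (0.12 to 1.79, adjusted p = 0.322), and XTH19 was still called (adjusted p = 0.0276). Probe sequences were not used, so how far the XTH19 probe set also reads transcripts of its relatives was not tested.

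**Figure D4:**
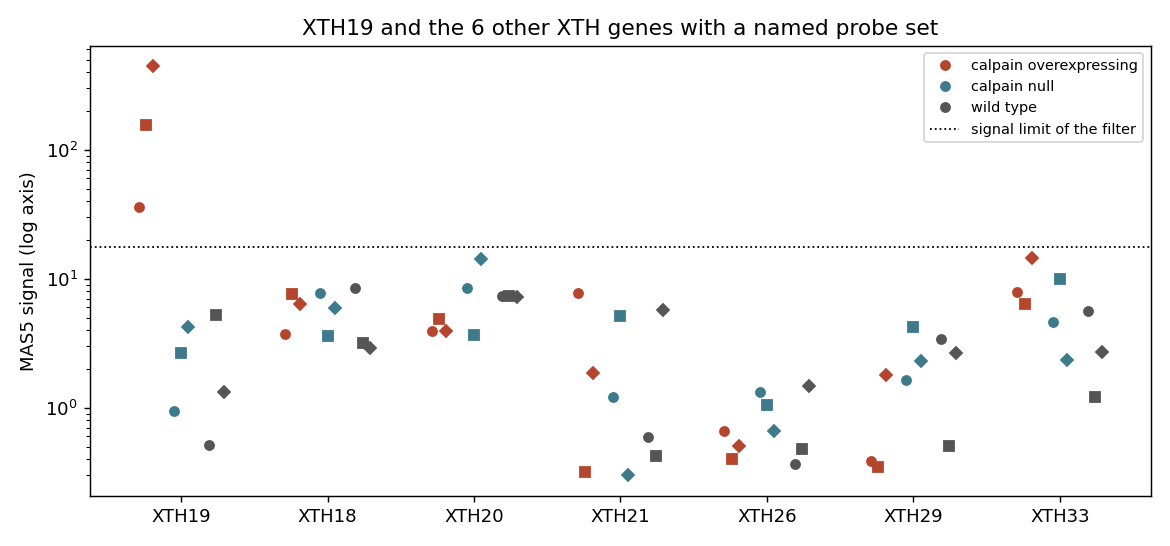
MAS5 signals (log axis) of XTH19 and of the 6 other XTH genes with a named probe set on the calpain overexpressing, calpain null and wild-type arrays, with the filter signal of 17.6 dotted. XTH19 crosses the line on its 3 calpain overexpressing arrays, and the 6 other genes stay between 0.301 and 14.4 on all 9 arrays.

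Of 24 listed genes of xyloglucan synthesis, 5 had a named probe set, and all 5 encode CSLC glucan synthases, which build the xyloglucan backbone. The other 19 are not analysed here. None of the 5 was called by limma in any of the 3 comparisons, where 1.61%, 0.0565% and 0.523% of all probe sets were called, so this count is near the background. CSLC5 had the smallest p against wild type, with 204 ± 26.5 in calpain overexpressing, 147 ± 9.996 in calpain null and 161 ± 18.3 in wild-type leaves (log2 fold change 0.34 against wild type, adjusted p = 0.205, and 0.46 against calpain null, adjusted p = 0.181). It alone of the 5 had an unadjusted p under 0.05 in these 2 comparisons, as 18.1% and 10.6% of all probe sets did, and 0 of 5 did in calpain null minus wild type, where 17.4% of all did. These counts are near the background. CSLC4, the most studied of them, averaged 332 ± 71.0, 309 ± 11.8 and 246 ± 81.0 in the same order of groups (0.46 against wild type, adjusted p = 0.306). CSLC12 had -0.31 (adjusted p = 0.532), and CSLC6 and CSLC8 had -0.02 and 0.06. The median over the 5 was 0.06 in calpain overexpressing minus wild type, beside 0.01 over all probe sets. None of the 5 listed enzymes that trim xyloglucan side chains had a named probe set that could be used.

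Among other enzymes and proteins of the primary wall, COB, a membrane-anchored protein needed for oriented cellulose deposition, was the single gene of 9 in the cellulose list with a named probe set. COB had 671 ± 32.4 in calpain overexpressing, 585 ± 7.95 in calpain null and 612 ± 46.3 in wild-type leaves and was not called (0.13 against wild type, adjusted p = 0.476). Expansins, which loosen walls without cutting polysaccharides, had 9 of 25 listed genes tested. In calpain overexpressing minus wild type 2 of the 9 were called, EXPA4 (0.76, adjusted p = 0.0162) and EXPB3 (0.97, adjusted p = 0.0431), both higher, where 0.806% of all probe sets tested were called higher. The third by p was EXPA8, with 0.86 (adjusted p = 0.182). EXPA4 averaged 329 ± 7.66 in calpain overexpressing, 213 ± 34.9 in calpain null and 193 ± 6.92 in wild-type leaves, and EXPB3 averaged 503 ± 21.8, 265 ± 82.4 and 258 ± 41.9 in the same order of groups. In calpain overexpressing minus calpain null 0 of 9 were called by limma, against 0.523% of all probe sets. There 2 of 9 had an unadjusted p under 0.05, against 10.6% of all: EXPA4 (0.63, adjusted p = 0.052) and EXPB3 (0.96, adjusted p = 0.0685). In calpain null minus wild type 0 of 9 were called, against 0.0565% of all, and 1 of 9, EXPA8, had an unadjusted p under 0.05 (0.72, adjusted p = 0.262), against 17.4% of all.

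The genes whose log2 signals followed each member most closely over the 9 arrays were sought among 6421 single-gene probe sets, with Pearson's r as the measure of likeness. The 9 values share their 3 groups and the arrays that stood apart, so r is a description. XTH19 was followed most closely by AT1G62770 (r = 0.991), AT4G32460 (r = 0.980), the endoglucanase gene GH9C2 (r = 0.975) and AT1G25530 (r = 0.973). AT1G62770 had signals of 64.6, 242 and 472 on the calpain overexpressing arrays, 11.8 to 24.5 on the calpain null arrays and 6.94 to 15.1 on the wild-type arrays. AT1G25530 had 29.8, 53.3 and 59.2, 15.2 to 24.1 and 15.2 to 18.7 in the same order of groups. In each of these genes the calpain overexpressing array numbered 1 was the lowest of its group, as for XTH19, which their choice by r favours.

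XTH32 was followed by THIC, an enzyme of thiamine synthesis (r = 0.973), AT5G14500 (r = 0.972), GH9C2 (r = 0.968) and AT1G07440 (r = 0.962). GH9C2 is thus on the lists of both XTH19 and XTH32. It had 696, 983 and 1233 on the calpain overexpressing arrays, 428 to 445 on the calpain null arrays and 311.5 to 481 on the wild-type arrays. XTH19 and XTH32 had r = 0.930 with each other, so a gene on both lists is not a separate result.

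XTH16 was followed by AT4G28780 (r = 0.977), AT2G46520 (r = 0.972), the transcription factor gene ATMYC1 (r = 0.969) and AT3G13930 (r = 0.966). AT4G28780 had 202, 109 and 83.3 on the calpain overexpressing arrays, 158 to 173 on the calpain null arrays and 288 to 311 on the wild-type arrays. As for XTH16, both lines lay below wild type, which the choice by r also favours. ATMYC1 averaged 36.8 ± 16.6, 46.0 ± 3.29 and 70.5 ± 7.74 in calpain overexpressing, calpain null and wild-type leaves. EXGT-A3 was followed less closely, by AT5G22400 (r = 0.949), AT2G04570 (r = 0.946), AT1G66100 (r = 0.940) and AT5G03380 (r = 0.932). XTH16 and EXGT-A3 had r = 0.507 with each other.

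**Figure D5:**
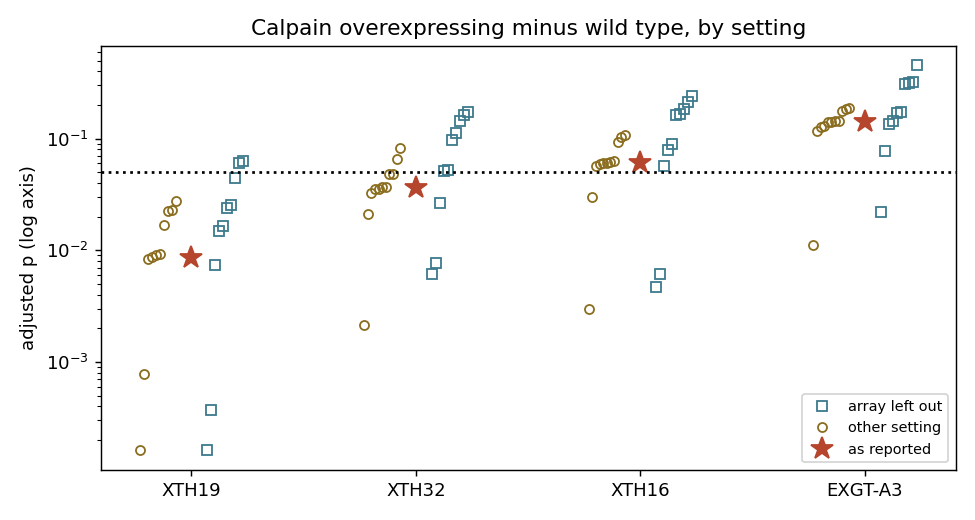
Adjusted p (log axis) of each gene in calpain overexpressing minus wild type, as reported (star), under other settings (circles) and with arrays left out (squares), with 0.05 dotted. XTH19 lies under the line in 18 of 20 alternatives and XTH32 in 12 of 21, while XTH16 does in 4 of 21 and EXGT-A3 in 2 of 21.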

How the data were processed

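Leaf RNA of 9 samples was hybridised to 1 array each, after biotin labelling, per the labels' protocols. The deposited intensity values were made by the authors with MAS5 in GCOS, per the submitters' processing notes. The values show a common scaling, with a mean of 100.01 after trimming on every array, and medians from 33.1 to 35.7. Detection calls were not used here, and precision is limited by the number of arrays. Replicates are numbered in the labels, which do not say that they came from separate plants, so the spread behind each p-value is that among these samples and may be technical. No 2 arrays were alike: log2 signals within a group correlated between 0.959 and 0.986.

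Signals were transformed as log2(signal + 3.63), the table's 20th percentile being the pseudocount. Probe sets reaching 17.6, the 40th percentile, on at least 3 arrays were tested, and 64 control probe sets were left out. Limma 3.58.1 in R 4.3.3 fitted 3 group means to all 9 arrays (6 residual degrees of freedom), with an intensity trend, two-sided moderated tests and Benjamini-Hochberg adjustment. When an array was left out, the tested probe sets stayed the same. Names came from the platform annotation (13513 with 1 gene, 503 with several, 8794 with none listed), and 13436 matched the TAIR10.1 RefSeq table. The genes, the 10 lists (116 entries) and the tests were chosen with earlier results of these data known.

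By rule, the text names the 4 members, the 4 single-gene probe sets most like each (highest group mean at or above the median signal of 34.4), called genes and at most 3 with the smallest p per list, and neighbouring XTH genes. The lists for epidermis, flower and pollen, and secondary wall and vasculature had 1, 0 and 0 probe sets named; ACR4 of the epidermis list averaged 30.5, 39.6 and 38.2 in calpain overexpressing, calpain null and wild-type leaves and was not called. The fit was tested on simulated data. Alternatives covered the pseudocount, filter, scaling, trend, array weights, fits of 2 groups, the replicate number as a block and each array left out. Plots were made in Python 3.11.15 (matplotlib 3.10.9).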

Additional observations from a re-analysis of the deposited data

How the results depend on the processing

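The depth of these results is set by 3 arrays per group and, for XTH19, by signals near the bottom of the range. Each of the 4 members kept its sign in calpain overexpressing minus wild type and in calpain overexpressing minus calpain null under every alternative run, and none was called in calpain null minus wild type, where XTH19, XTH32 and EXGT-A3 lay near 0 with either sign. The filter at the 60th percentile removed XTH19, so that alternative has no value for it, and the F-test was not run on 2 groups. The cause of the changes below was not tested unless stated.

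With 1 array left out at a time, calpain overexpressing minus wild type ranged from 3.82 to 5.56 for XTH19, 0.46 to 0.59 for XTH32, -0.71 to -0.43 for XTH16 and -0.48 to -0.31 for EXGT-A3, with 7, 2, 1 and 0 of 9 fits calling them. Calpain overexpressing minus calpain null ranged from 3.71 to 5.46 for XTH19, called in 6 of 9, and from 0.47 to 0.57 for XTH32, called in 1 of 9. The lost XTH19 calls there had adjusted p of 0.0563 without the calpain overexpressing array numbered 2, and of 0.0511 and 0.0522 without the second and the third calpain null array. Fitting only the 2 groups compared also ended that call (4.54, adjusted p = 0.0572). XTH32 against wild type stayed at 0.53 but was not called with no filter (adjusted p = 0.0659) or no intensity trend (adjusted p = 0.083). Array weights called XTH16 (-0.62, adjusted p = 0.00301) and EXGT-A3 (-0.46, adjusted p = 0.0111) against wild type and XTH32 against calpain null (0.58, adjusted p = 0.0115). With all arrays numbered 1 left out (chosen after seeing the data), these 3 values were -0.71, -0.50 and 0.63.

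Of the 4 members, 2 were called as reported in calpain overexpressing minus wild type, with 1.61% of all probe sets called. Percentages below are likewise of all probe sets tested in the same fit. The count was 1 with no filter (0.334%) and with no trend (0.721%), and 1 of 3 tested under the 60th percentile filter (1.84%), which removed XTH19. It was 3 with the replicate number as a block (5.44%), 4 with array weights (18.8%) and 4 with the arrays numbered 1 left out (13.6%). With 1 array left out it was 0 to 3 (0.184% to 12.6%). Against calpain null, 1 was called (0.523%), with 0 of 3 tested under the 60th percentile filter (0.633%) and 0 in the fit of 2 groups (0.17%). There were 2 with array weights (1.68%), 2 with the arrays numbered 1 left out (2.64%), and 0 to 2 with 1 array left out (0.177% to 1.22%). The F-test called 2 (1.16%), with 1 under a pseudocount of 1 (0.876%), no filter (0.286%), median centring (0.947%) and no trend (0.544%). A filter on the mean over all arrays, also chosen after seeing the data, gave 1 (0.912%). The 60th percentile filter gave 0 of 3 tested (1.1%). Array weights gave 4 (15.9%), as did leaving out the arrays numbered 1 (13.5%), and leaving out 1 array gave 0 to 3 (0.247% to 10.2%).

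Over all probe sets, 228 were called in calpain overexpressing minus wild type, with 76 under no filter, 102 with no trend, 2663 with array weights, 1923 without the arrays numbered 1 and 26 to 1789 with 1 array left out. Calpain null minus wild type had 8, with 16 under the 60th percentile filter, 619 with array weights, 263 in the fit of 2 groups, 1122 without the arrays numbered 1 and 1 to 491 with 1 array left out. Calpain overexpressing minus calpain null had 74, with 39 under no filter, 238 with array weights, 24 in the fit of 2 groups, 373 without the arrays numbered 1 and 25 to 172 with 1 array left out.

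Replicate numbers are in the labels, with no word that a number marks a shared batch. Deviations of same-numbered arrays from their group means correlated between -0.13 and 0.37. All correlations with calpain overexpressing arrays were positive, and the highest were for number 1, 0.32 with wild type and 0.37 with calpain null. Those between calpain null and wild type were all negative. Because the labels name no batch and the sign varied, the main fit did not pair samples by number. Whether same-numbered arrays share a batch is not known. With the replicate number as a block, XTH16 against wild type was called (-0.57, adjusted p = 0.0302), and 770, 461 and 187 probe sets were called in calpain overexpressing minus wild type, calpain null minus wild type and calpain overexpressing minus calpain null. The block changed no other call of a member.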
